A study of Mus musculus with 12 samples.

Results

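The 7 genes described here, H2-Aa, H2-Ab1, H2-Eb1, Cd74, Ciita, H2-DMa and H2-DMb1, make and load the MHC class II molecules that present peptides to CD4 T cells. They were chosen by symbol from the 52632 genes of the table, all 7 had a value above 0 in every library, and all 7 had a mean of at least 1 FPKM, the level needed to enter the tests. RNA was sequenced from CD4 T cells sorted out of mouse kidney in 12 libraries, 3 in each of 4 groups. KO IRI libraries came from CD4 Keap1 KO mice on the C57BL6/J background, named for the gene of a negative regulator of the antioxidant factor NRF2, with kidneys taken 24 hours after both renal pedicles had been clamped for 30 minutes (ischemia reperfusion injury, IRI). KO control libraries came from mice of the same genotype outside the IRI group, WT IRI libraries from C57BL6/J mice after the same clamping, and WT control libraries from C57BL6/J mice outside the IRI group. The KO mice were bred in house and the WT mice were bought, so genotype and source cannot be told apart. The sources used here do not say how Keap1 was deleted, whether controls had sham surgery, how old the mice were, or whether the 3 replicates were separate animals, and the p-values therefore reflect only how these samples varied, which may be technical.

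In the background biology of this pathway, class II molecules are dimers of an alpha and a beta chain that are assembled on the invariant chain, trimmed free of it in endosomes and then loaded with peptide. Dendritic cells, B cells and macrophages carry them at high levels, and CIITA, the transactivator, switches the chain genes, the invariant chain and the loading genes on together. Resting mouse CD4 T cells are not known for making class II, whereas they carry its receptor, CD4. The labelled cell type was checked against 10 T cell markers, whose summed level lay between 655 and 2727 FPKM in the 12 libraries, while 10 B cell markers summed to between 10.2 and 125 FPKM.

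Of the table as a whole, 19288 genes were tested. Summed FPKM ran between 739969 and 2089551, and the 3 most abundant genes held between 17.7% and 63.1% of that sum. KO control 1, KO control 3 and WT control 3 listed 48.5%, 43.1% and 44.7% of genes at 0, against 21.1% to 33.9% in the other 9 libraries. FPKM values carry no read counts, so the depth behind a single value is unknown. Nqo1, an NRF2 target, was higher in KO libraries with a log2 difference of 2.76 in controls (SE 0.28, adjusted p = 0.00588, limma) and 2.18 after IRI (SE 0.28, adjusted p = 0.0321). Keap1 itself was at 4.59 to 6.28 FPKM in KO IRI and 5.75 to 7.77 FPKM in KO control libraries, against 6.03 to 8.80 FPKM in WT IRI and 8.50 to 9.87 FPKM in WT control libraries, and its averaged difference of −0.34 (SE 0.13, adjusted p = 0.0945) did not pass as deposited and was −0.61 (adjusted p = 0.0484) once libraries were rescaled by the median of gene ratios; the table gives no level for the deleted part alone.

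Of the class II genes, 5 lie on chromosome 17 (GRCm38), in the order H2-DMa at 34119541 to 34139101, H2-DMb1 at 34153072 to 34160230, H2-Ab1 at 34257689 to 34269419, H2-Aa at 34282744 to 34287823 and H2-Eb1 at 34305867 to 34316674. H2-Aa is read from the minus strand and the other 4 from the plus strand. RefSeq promoter windows (GRCm38.p6) matched 4 of the 7, H2-Aa, H2-Eb1, H2-DMa and H2-DMb1, and stretches just before the RefSeq start of 3 of them are shown because they hold at least 1 of the motifs searched. Capitals mark TGATTGG, which holds the reverse complement of the CCAAT sequence that NF-Y binds, TGACGTCA, the letters that CREB1 binds, and AACTGATGATGCT, the longest run that the H2-Eb1 and H2-DMb1 windows share.
H2-Aa, chr17:34287824-34287943, minus strand: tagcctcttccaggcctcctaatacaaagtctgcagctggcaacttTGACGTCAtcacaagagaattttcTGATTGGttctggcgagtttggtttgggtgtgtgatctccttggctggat
H2-Eb1, chr17:34305747-34305866, plus strand: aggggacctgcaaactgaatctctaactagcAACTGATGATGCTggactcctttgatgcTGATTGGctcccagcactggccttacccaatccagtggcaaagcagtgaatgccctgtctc
H2-DMb1, chr17:34153089-34153116, plus strand: tttacctagtAACTGATGATGCTaggct
H2-DMb1, chr17:34153118-34153145, plus strand: attcactcagTGATTGGtctgacctgcc

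TGATTGG began 50 bases before the RefSeq start in H2-Aa, 61 in H2-Eb1 and 63 in H2-DMb1. The RefSeq start of H2-DMb1 differs from the gene start given above, 34153072, so both H2-DMb1 stretches lie inside the gene span given there. AACTGATGATGCT began 89 bases before the start in H2-Eb1 and 92 in H2-DMb1, so that in both genes it lay just upstream of TGATTGG. H2-Aa had TGACGTCA at 74 bases before the start and lacked the shared run. The motifs were searched on both strands in the 250 bases before the start and were picked after the sequences had been read, and none of them overlapped another. Among all 32851 windows, 7.23% held TGATTGG, 1.55% held TGACGTCA and 0.00609% held AACTGATGATGCT, which are the 2 windows it was taken from. The 2 windows of H2-DMa held none of the 3 motifs, which says only that these letters are absent there.

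Transcripts of all 7 genes were measured in all 4 groups. FPKM is scaled by transcript length, so levels can be set side by side between genes. Cd74, the invariant chain, was the highest of the 7 in every group, followed by the chains H2-Aa, H2-Ab1 and H2-Eb1, and H2-DMa, H2-DMb1 and Ciita were lowest. Each of the 7 was highest in KO control 1, and 6 were lowest in WT IRI 3, with H2-DMb1 lowest in WT IRI 1.

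The 3 chain genes code for the I-A alpha chain (H2-Aa), the I-A beta chain (H2-Ab1) and the I-E beta chain (H2-Eb1). H2-Aa was at 65.8, 63.9 and 98.8 FPKM in KO IRI and 431, 185 and 210.5 FPKM in KO control libraries, and at 68.5, 64.5 and 33.1 FPKM in WT IRI and 145, 110.3 and 93.4 FPKM in WT control libraries. H2-Ab1 was at 60.1, 47.2 and 80.2 FPKM in KO IRI and 501, 194 and 209 FPKM in KO control libraries, and at 61.0, 66.0 and 36.3 FPKM in WT IRI and 167, 120.3 and 95.3 FPKM in WT control libraries. H2-Eb1 was at 45.3, 39.3 and 63.7 FPKM in KO IRI and 252, 128 and 130.2 FPKM in KO control libraries, and at 39.7, 41.6 and 18.8 FPKM in WT IRI and 93.0, 69.2 and 51.4 FPKM in WT control libraries. For all 3 chains the IRI libraries were below the control libraries of their genotype with no overlap, the KO control libraries were above the WT control libraries with no overlap, and the KO IRI and WT IRI libraries overlapped.

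Cd74 (chromosome 18, 60803848 to 60812652, plus strand) codes for the invariant chain, which guides new class II dimers to endosomes and blocks their groove until they are loaded. It was at 136, 155 and 233 FPKM in KO IRI and 625, 396 and 360.4 FPKM in KO control libraries, and at 147, 136 and 70.6 FPKM in WT IRI and 304, 190.2 and 165 FPKM in WT control libraries. The groups stood in the same order as for the chains, again with an overlap only between KO IRI and WT IRI among these comparisons. Cd74 holds the microRNA gene Mir5107 on its own strand, listed at a mean of 74.9 FPKM, so reads there may have been given to either, which bears on the ratios to Cd74 as well.

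H2-DMa and H2-DMb1 code for the alpha chain and a beta chain of H2-M, which exchanges the last fragment of the invariant chain for peptide. H2-DMa was at 7.13, 6.48 and 4.62 FPKM in KO IRI and 38.4, 11.4 and 19.5 FPKM in KO control libraries, and at 5.64, 6.39 and 3.63 FPKM in WT IRI and 14.7, 9.35 and 5.37 FPKM in WT control libraries. H2-DMb1 was at 3.04, 1.01 and 1.45 FPKM in KO IRI and 11.6, 6.16 and 5.71 FPKM in KO control libraries, and at 0.957, 1.54 and 2.74 FPKM in WT IRI and 3.64, 3.79 and 2.4 FPKM in WT control libraries. Both were lower in each KO IRI library than in any KO control library, and both overlapped between WT IRI and WT control. The H2-DMb1 value is uncertain, since 34.5% of the 36-base windows of its transcript also occur in its neighbour H2-DMb2, against 0% to 1.24% shared windows for the other 6. H2-DMa overlaps Brd2 on the opposite strand, which averaged 211.5 FPKM, and the strand setting of the counting is not given in the sources used here, so reads of the overlap may have been given to either gene.

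Ciita, the transactivator (chromosome 16, 10480059 to 10528418, plus strand), was at 1.65, 0.942 and 1.3 FPKM in KO IRI and 8.84, 4.78 and 3.80 FPKM in KO control libraries, and at 0.964, 1.31 and 0.509 FPKM in WT IRI and 4.18, 2.86 and 2.01 FPKM in WT control libraries. The IRI libraries were below the controls of their genotype without overlap, and KO control 3 lay below WT control 1. Ciita overlaps Dexi, on the opposite strand with a mean of 9.33 FPKM.

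**Figure D1:**
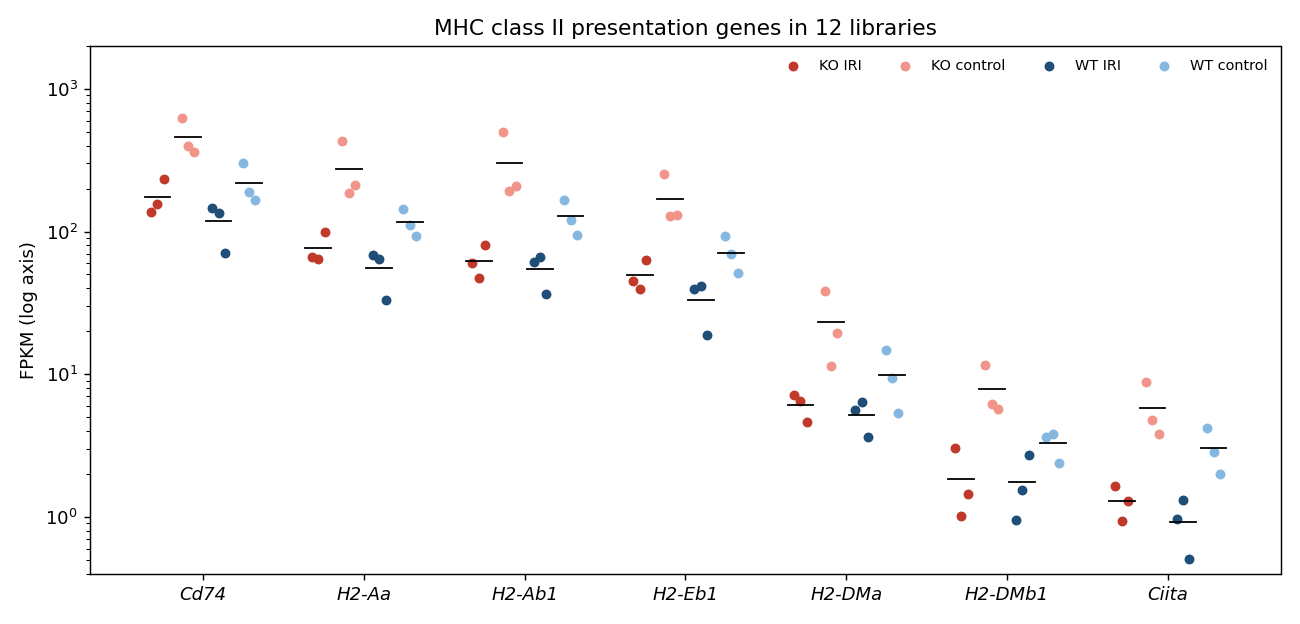
FPKM (log axis) of the 7 class II genes in 12 libraries; points are libraries, bars are group means, and each gene has KO IRI, KO control, WT IRI and WT control from left to right. KO IRI points lie below KO control points for all 7 genes, and WT IRI points lie below WT control points for 5 of 7.

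The first comparison asks how the class II genes stood after injury. Averaged over both genotypes, all 7 were lower in IRI than in control libraries, with adjusted p under 0.05 in limma; 6.03% of all tested genes were called lower in this comparison. Fitted differences are on the log2(FPKM + 1) scale, which understates changes of low genes such as Ciita. H2-Ab1 fell by 1.68 on that scale (SE 0.28, adjusted p = 0.00455, n = 6 libraries per arm in limma), H2-Aa by 1.43 (SE 0.26, adjusted p = 0.00793), H2-Eb1 by 1.41 (SE 0.26, adjusted p = 0.00880) and Ciita by 1.28 (SE 0.22, adjusted p = 0.00608). H2-DMa fell by 1.18 (SE 0.30, adjusted p = 0.0350), H2-DMb1 by 1.16 (SE 0.25, adjusted p = 0.0162) and Cd74 by 1.15 (SE 0.26, adjusted p = 0.0193). The median of the 7 differences was −1.28, against −0.00 over all tested genes. H2-Aa, H2-Ab1, H2-Eb1 and Ciita passed in each of 20 alternative settings, H2-DMb1 in 19, Cd74 in 18 and H2-DMa in 9. The fall of H2-DMa passed without KO control 2 or WT control 3 but not without any of the other 10 libraries (adjusted p between 0.0551 and 0.0903), and without KO IRI 2 only 4 of the 7 passed, with adjusted p of 0.0562 for Cd74 and 0.0501 for H2-DMb1. Without KO control 1, WT IRI 3 and WT control 3 together, libraries that stood apart in earlier results, 6 of 7 passed and Cd74 did not (−0.95, SE 0.21, adjusted p = 0.0533). In bulk samples such as these, fewer cells of a type and less RNA per cell cannot be told apart.

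Within KO libraries, all 7 genes had lower values in each IRI library than in any control library, where 9.15% of all tested genes were separated that way. In limma, only H2-Ab1 fell (−2.14, SE 0.39, adjusted p = 0.0401), against 0.539% of all tested genes called lower. The other 6 had differences between −1.39 and −1.77, with adjusted p between 0.0571 and 0.110. The call on H2-Ab1 held when single libraries were left out only without KO control 2 (adjusted p = 0.0223) or WT IRI 3 (adjusted p = 0.0371), and the other 10 gave adjusted p between 0.0567 and 0.170. Rescaling the libraries by the median of gene ratios raised the count to 4 of 7, namely H2-Ab1, H2-Aa, H2-Eb1 and Ciita, against 1.10% of all tested genes called lower on that scale.

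Within WT libraries, 5 of the 7 genes were lower in each IRI library than in any control library, against 14.4% of all tested genes, and H2-DMa and H2-DMb1 overlapped. In limma 0 of 7 passed, whereas 2.59% of all tested genes were called lower and 3473 genes had an unadjusted p under 0.05. The differences lay between −0.67 (H2-DMb1, SE 0.35, adjusted p = 0.359) and −1.22 (H2-Ab1, SE 0.39, adjusted p = 0.122), and after rescaling Ciita alone passed (−1.06, SE 0.28, adjusted p = 0.0486), against 4.68% of all tested genes called lower on that scale.

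The interaction, which tests whether the injury response differed between KO and WT, passed for 0 of 7 genes (adjusted p = 0.999 for each in limma; 0.00518% of all tested genes were called lower, and 646 had an unadjusted p under 0.05). Its values, KO response minus WT response, were all below 0, from −0.46 for Ciita (SE 0.45, 95% interval −1.45 to 0.52) to −0.97 for H2-DMb1 (SE 0.50, 95% interval −2.06 to 0.13). The fitted fall was larger in KO for each of the 7, by an amount that this test did not separate from the spread between libraries.

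**Figure D2:**
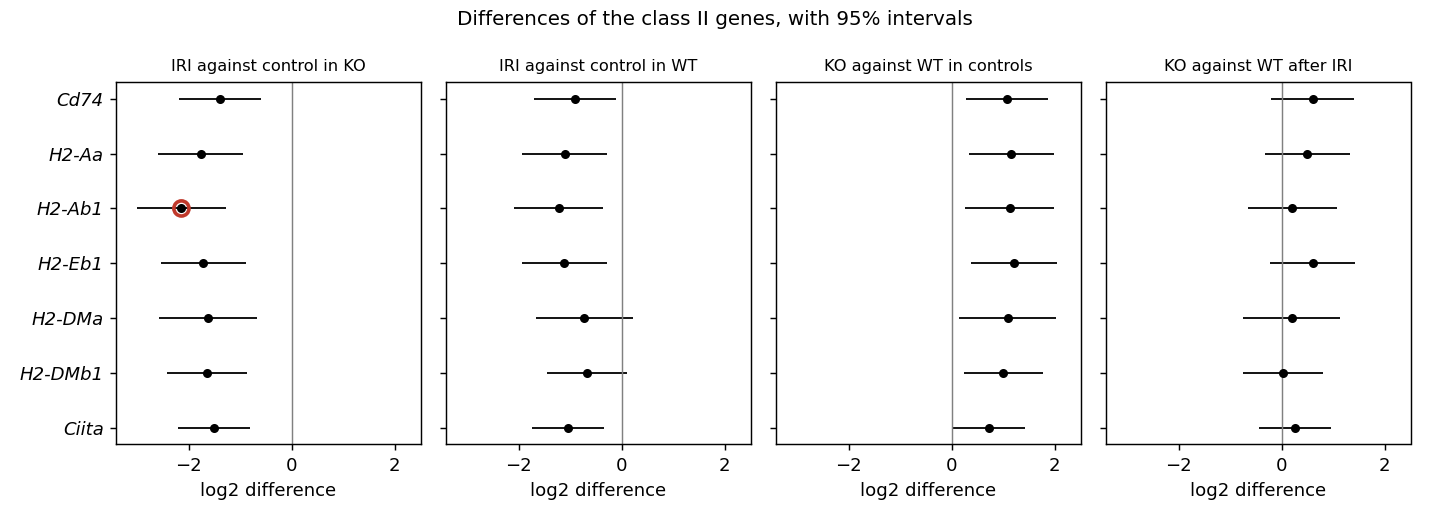
Log2 difference of each class II gene on the log2(FPKM + 1) scale, with 95% intervals from limma, in 4 comparisons; a red ring marks an adjusted p under 0.05. All 7 genes lie below 0 in IRI against control in KO, where H2-Ab1 is ringed at −2.14, and all 7 lie above 0 in KO against WT in controls, with no ring.

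The next comparison asks how the genes differed between genotypes. In control kidneys 5 of the 7 (H2-Aa, H2-Ab1, H2-Eb1, Cd74 and H2-DMb1) were higher in each KO library than in any WT library, against 20.1% of all tested genes. In limma 0 of 7 passed, where 0.0259% of all tested genes were called higher and 4022 genes had an unadjusted p under 0.05. The fitted differences ran between 0.73 for Ciita (SE 0.32, adjusted p = 0.227) and 1.21 for H2-Eb1 (SE 0.37, adjusted p = 0.192), with a median of 1.09. The scaling bears on these values, since the median of all tested genes was itself 0.30, and after rescaling the median of the 7 was 0.77 and that of all tested genes 0.01.

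After IRI the KO and WT libraries overlapped for all 7 genes, while 24.9% of all tested genes were higher in each KO IRI library than in any WT IRI library. In limma 0 of 7 passed (0.0518% of all tested genes were called higher, and 4324 had an unadjusted p under 0.05). The differences lay between 0.03 for H2-DMb1 (SE 0.35, 95% interval −0.74 to 0.81) and 0.60 for H2-Eb1 (SE 0.37, 95% interval −0.22 to 1.43), with a median of 0.26, and the median of all tested genes was also 0.26. After rescaling H2-Ab1 (−0.08), H2-DMa (−0.05) and H2-DMb1 (−0.17) lay below 0 and the other 4 above, so no direction is given for them.

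Averaged over condition, 1 of 7 rose in KO libraries in limma, H2-Eb1 (0.91, SE 0.26, adjusted p = 0.0469), against 11.9% of all tested genes called higher. Cd74 (0.84, SE 0.26, adjusted p = 0.0525) and H2-Aa (0.83, SE 0.26, adjusted p = 0.0586) did not pass. The call on H2-Eb1 ended after rescaling (0.59, SE 0.22, adjusted p = 0.154, with 0.378% of all tested genes called higher) and without any single library but KO control 2 (adjusted p between 0.0549 and 0.106 without each of the other 11, and 0.0297 without KO control 2). The counts over all genes turn on single libraries too: without KO control 2 they were 1961 in controls (5 with all libraries), 552 after IRI (11) and 5898 in the genotype average (2639), and without WT control 1 the last was 34. All of these comparisons draw on the same 12 libraries, and each group serves in several of them.

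Close relatives of the 7 genes were measured as well. H2-Ob and H2-Oa code for the chains of H2-O, which holds H2-M back and is known from B cells. H2-Ob was at 7.26, 6.93 and 9.32 FPKM in KO IRI and 40.4, 17.7 and 18.8 FPKM in KO control libraries, and at 3.65, 5.99 and 4.74 FPKM in WT IRI and 20.5, 9.89 and 5.80 FPKM in WT control libraries. H2-DMb2, the second H2-M beta chain, was at 0.523, 0.654 and 1.42 FPKM in KO IRI and 10.7, 3.25 and 4.53 FPKM in KO control libraries, and at 0.814, 1.44 and 1.23 FPKM in WT IRI and 6.30, 2.75 and 3.50 FPKM in WT control libraries. Of this list of 5, the 3 that were tested had a median difference of −1.27 in the IRI average, and 2 fell, H2-Ob by 1.27 (SE 0.29, adjusted p = 0.0226) and H2-DMb2 by 1.52 (SE 0.27, adjusted p = 0.00700). H2-Oa had a difference of −0.97 (SE 0.30, adjusted p = 0.0766). H2-Eb2, at most 0.910 FPKM, and H2-Ea-ps, at most 0.447 FPKM, were below the filter; the I-E alpha gene is not functional in the H-2b haplotype of C57BL/6 mice.

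Genes that act next to the 7 had calls in both directions in the IRI average. Among 8 genes of antigen processing in endosomes, Cst3, an inhibitor of cathepsins, fell by 1.47 (SE 0.24, adjusted p = 0.00449), while the proteases Ctsl (1.18, SE 0.32, adjusted p = 0.0465) and Lgmn (1.04, SE 0.20, adjusted p = 0.0106) rose and 5 did not pass. Cst3 was at 31.5, 24.5 and 33.0 FPKM in KO IRI and 142, 60.9 and 66.7 FPKM in KO control libraries, and at 21, 18.7 and 10.4 FPKM in WT IRI and 50.9, 37 and 52.6 FPKM in WT control libraries. Ctss, the protease that trims the invariant chain in B cells and dendritic cells, had a difference of −0.04 (adjusted p = 0.931). The median of the 8 was −0.28. After rescaling 2 were higher and 2 lower, with Ctsd, a cathepsin, at −0.57 (adjusted p = 0.0108).

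Of 9 genes for factors that work with CIITA at class II promoters, Nfya fell by 1.27 (SE 0.20, adjusted p = 0.00416) and Creb1 by 0.64 (SE 0.13, adjusted p = 0.0132), and Nfyb rose by 0.54 (SE 0.15, adjusted p = 0.0463). The RFX subunits Rfx5, Rfxap and Rfxank, which bind the X box, did not pass, with differences between −0.42 and 0.16, and the median of the 9 was −0.13. After rescaling 2 were higher and 2 lower, with Crebbp, a coactivator, at 0.35 (adjusted p = 0.0445). Nfya and Nfyb code for subunits of NF-Y, the factor of the CCAAT sequence, and so the genes for its subunits had calls in opposite directions.

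Interferon gamma is the best known inducer of Ciita outside B cells and dendritic cells. Of the genes on that route given here, Ifng fell in the IRI average by 1.72 (SE 0.29, adjusted p = 0.00473) and Irf2 by 0.63 (SE 0.18, adjusted p = 0.0493). Ifngr2, a receptor chain (0.86, SE 0.19, adjusted p = 0.0173), and Jak2, its kinase (0.61, SE 0.17, adjusted p = 0.0491), rose. After rescaling Ifngr1 (0.41, adjusted p = 0.0234) and Irf1 (0.41, adjusted p = 0.0298) also rose and the call on Irf2 was lost. Ifng was at 30.4, 26.7 and 25 FPKM in KO IRI and 151, 59.8 and 65.5 FPKM in KO control libraries, and at 50.6, 19.1 and 21.6 FPKM in WT IRI and 92.3, 131 and 89.8 FPKM in WT control libraries. The IRI libraries were below the controls of their genotype without overlap. Whether Ifng bears on the class II levels was not tested.

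The class II turnover genes (March1, March8 and Cd83) and 4 tested costimulation genes (Cd86, Cd40, Icosl and Cd274) had 0 calls in limma in the IRI average, with medians of 0.07 and −0.15. Of 10 class I presentation genes 4 fell, namely B2m by 0.80 (SE 0.17, adjusted p = 0.0140), the immunoproteasome genes Psmb8 by 0.99 (SE 0.15, adjusted p = 0.00302) and Psmb9 by 1.05 (SE 0.16, adjusted p = 0.00344), and Nlrc5, the class I transactivator, by 0.75 (SE 0.16, adjusted p = 0.0168). The median of the class I list was −0.56 and its 10 differences were all below 0, with H2-K1 at −0.02 and H2-D1 at −0.32. After rescaling 1 of the 10 lay above 0. The receptors of class II on T cells, Cd4 (−0.53, SE 0.20, adjusted p = 0.140) and Lag3 (−0.14, SE 0.26, adjusted p = 0.777), did not pass.

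**Figure D3:**
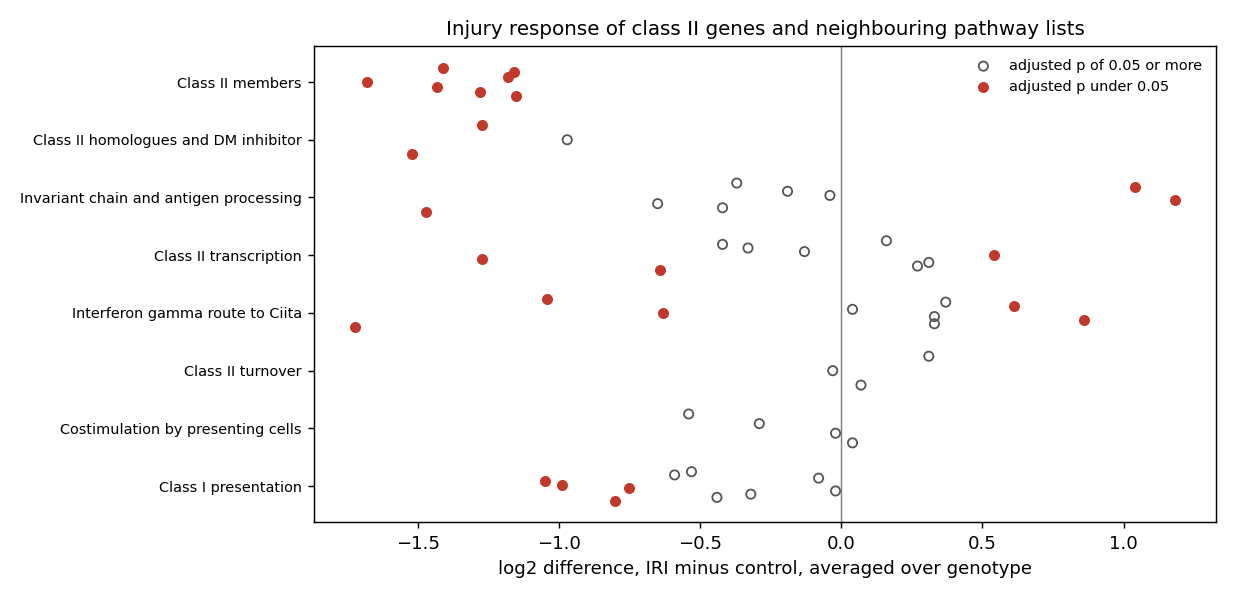
Log2 difference on the log2(FPKM + 1) scale, IRI minus control averaged over genotype, for each tested gene of 8 lists, 1 list per line; filled red points had an adjusted p under 0.05 in limma. The 7 class II points all lie at −1.15 or lower and are filled, while the processing, transcription and interferon gamma lists have filled points on both sides of 0.

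In the genotype average, all calls in these lists were upward, and most were tied to scaling. Of all tested genes, 11.9% were called higher as deposited and 0.378% after rescaling. Of the processing list Ctss, Ctsb, Ifi30 and Cst3 rose in KO libraries, by 0.62 to 0.84, as did Rfxap and Crebbp of the transcription list, Ifngr1, Ifngr2, Irf2 and Socs1 of the interferon gamma route, and Tapbp and Psmb8 of the class I list. None of these passed after rescaling, when Cd4 alone among the genes of these lists did. As deposited, Cd4 rose by 1.62 in KO libraries (SE 0.20, adjusted p = 0.00882), and it was at 149 to 237 FPKM in KO IRI and 183 to 382 FPKM in KO control libraries, against 49.7 to 70.7 FPKM in WT IRI and 85.7 to 101 FPKM in WT control libraries.

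Marker lists of presenting cells were summed beside the class II genes. The 10 B cell markers summed to 12.1, 10.2 and 14.8 FPKM in KO IRI and 125, 37.4 and 47.2 FPKM in KO control libraries, and to 13.6, 25 and 12.0 FPKM in WT IRI and 74.7, 32.5 and 21.6 FPKM in WT control libraries. In the IRI average 5 of the 10 fell (Cd79a, Cd79b, Ms4a1, Cd22 and Fcer2a, by 1.26 to 1.71), with a median of −1.32 for the list, and Pax5 (−1.38, SE 0.46, adjusted p = 0.0941), a B cell transcription factor, did not pass. As deposited, the list had 0 calls in limma within either genotype, with a median of −1.73 in KO and −0.94 in WT. All 10 B cell markers were above 0 in every library. Their part in the class II result was not tested.

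The 10 dendritic cell markers summed to 23.3, 17.5 and 18.4 FPKM in KO IRI and 79.6, 44.1 and 32.2 FPKM in KO control libraries, and to 17.7, 20.2 and 16.5 FPKM in WT IRI and 34.2, 25.5 and 16.8 FPKM in WT control libraries. Of the 9 tested, Clec9a fell by 1.04 (SE 0.20, adjusted p = 0.0101) and Cd209a by 1.47 (SE 0.29, adjusted p = 0.0113), and Batf3 and Clec10a were each listed at 0 in a library. The median of the 9 was −0.61 in the IRI average. Zbtb46, a transcription factor of conventional dendritic cells, had a difference in the other direction that did not pass (0.45, SE 0.16, adjusted p = 0.107). It was at 3.74, 2.22 and 2.26 FPKM in KO IRI and 1.43, 1.84 and 1.27 FPKM in KO control libraries, and at 1.85, 1.88 and 2.22 FPKM in WT IRI and 1.49, 1.17 and 1.38 FPKM in WT control libraries, with IRI above control and no overlap in either genotype. The 12 macrophage and monocyte markers summed to 91.7 to 208 FPKM in KO IRI and 236 to 441 FPKM in KO control libraries, and to 113 to 122 FPKM in WT IRI and 179 to 243 FPKM in WT control libraries. Of these 12, all above 0 in every library, Adgre1, C1qa, Ccr2 and Ly6c2 fell and Mertk rose, and the median of the list was −0.70. The part of either list in the class II result was not tested.

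Plasma cells make antibody and come from B cells. Their 5 markers summed to 5.22, 22.4 and 4.70 FPKM in KO IRI and 184, 26.2 and 38.2 FPKM in KO control libraries, and to 5.09, 4.82 and 9.90 FPKM in WT IRI and 5.26, 3.65 and 3.09 FPKM in WT control libraries. KO control libraries were above both KO IRI and WT control libraries without overlap, and WT IRI and WT control overlapped. Jchain, the joining chain of secreted antibody, was at 166, 23.7 and 34.5 FPKM in KO control libraries, against 0.0318, 0.819 and 1.29 FPKM in WT control libraries. After IRI it was at 1.37, 18.2 and 0.229 FPKM in KO and 0.446, 0.0191 and 2.67 FPKM in WT libraries, which overlapped. Jchain thus made up most of the KO control sums, and the separation of the sums is not shared by the whole list. Mzb1, at most 6.57 FPKM, separated in the same way. Sdc1 and Derl3 overlapped between KO control and both KO IRI and WT control, and Tnfrsf17 overlapped between KO control and WT control. Jchain rose in KO libraries in the genotype average as deposited (3.07, SE 0.70, adjusted p = 0.0314, limma), where 11.9% of all tested genes were called higher. After rescaling 0 of the 2 tested genes of this list were called, against 0.378% of all tested genes called higher. Mzb1 and Tnfrsf17 were each listed at 0 in a library. The part of this list in the class II result was not tested.

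The CD4 T cell markers also had lower sums in IRI than in control libraries of the same genotype. They summed to 1748, 1332 and 1549 FPKM in KO IRI and 2541, 1835 and 2727 FPKM in KO control libraries, and to 787, 714 and 655 FPKM in WT IRI and 1438, 1554 and 1581 FPKM in WT control libraries, and 7 of the 10 fell in the IRI average with a median of −0.82. Of 6 neutrophil markers 4 rose, with a median of 1.42. Averaged over condition, all 10 CD4 T cell markers were called higher in KO libraries as deposited, and 4 were after rescaling. Of all tested genes, 11.9% and 0.378% were called higher on those scales.

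**Figure D4:**
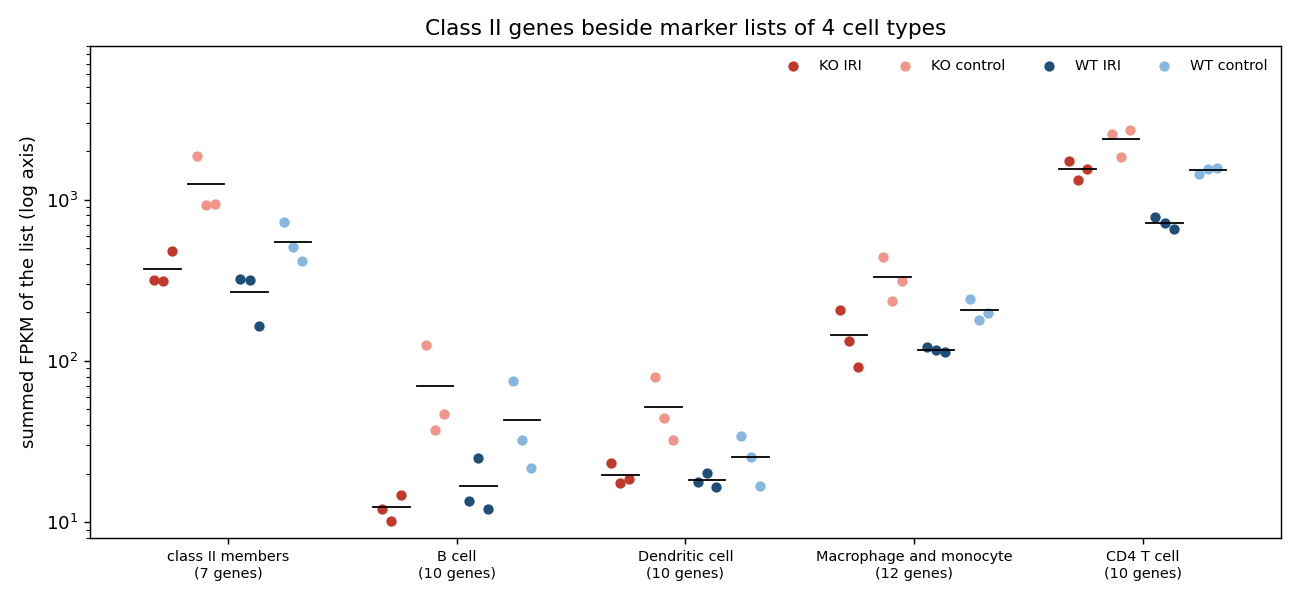
Summed FPKM (log axis) of the class II genes and of 4 marker lists in each library; points are libraries, bars are group means, with KO IRI, KO control, WT IRI and WT control from left to right. KO control 1 is the highest library for the class II sum (1868), the B cell sum (125), the dendritic cell sum (79.6) and the macrophage and monocyte sum (441).

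The class II genes were also set against those sums within each library. The ratio of H2-Ab1 to the B cell sum was 4.99, 4.61 and 5.42 in KO IRI and 4.02, 5.18 and 4.43 in KO control libraries, and 4.48, 2.64 and 3.02 in WT IRI and 2.24, 3.71 and 4.42 in WT control libraries, so that IRI and control overlapped in both genotypes. Cd74, H2-Aa and H2-Eb1 differed from this in KO, where their ratios to the B cell sum were higher in IRI than in control libraries without overlap. For Cd74 that ratio was 11.3, 15.2 and 15.8 in KO IRI and 5.01, 10.6 and 7.64 in KO control libraries. For H2-Aa it was 5.46, 6.25 and 6.67 in KO IRI and 3.46, 4.95 and 4.46 in KO control libraries, and for H2-Eb1 it was 3.76, 3.84 and 4.3 in KO IRI and 2.02, 3.42 and 2.76 in KO control libraries. In WT the ratios of these genes to the B cell sum overlapped between IRI and control. The ratio of H2-Ab1 to the CD4 T cell sum was 0.0344, 0.0355 and 0.0518 in KO IRI and 0.197, 0.106 and 0.0767 in KO control libraries, with no overlap. In WT the same ratio was 0.0775, 0.0924 and 0.0555 in IRI and 0.116, 0.0774 and 0.0603 in control libraries, which overlapped. The Cd74 ratio to the CD4 T cell sum overlapped in KO. It was 0.078, 0.117 and 0.151 in KO IRI and 0.246, 0.216 and 0.132 in KO control libraries. H2-Aa, H2-Eb1, Ciita, H2-DMa and H2-DMb1 were lower in KO IRI by that ratio without overlap, and each class II gene overlapped in WT. The ratio of H2-Ab1 to the dendritic cell sum was 2.59, 2.70 and 4.35 in KO IRI and 6.30, 4.4 and 6.50 in KO control libraries, and 3.44, 3.26 and 2.2 in WT IRI and 4.89, 4.71 and 5.68 in WT control libraries, with no overlap in either genotype. In KO the ratio to the dendritic cell sum was also lower in IRI without overlap for Ciita and H2-DMb1, but IRI and control overlapped for H2-Aa, H2-Eb1, Cd74 and H2-DMa. In WT that ratio was lower in IRI without overlap for H2-Aa, H2-Eb1, Ciita and H2-DMa, and it overlapped for Cd74 and H2-DMb1. For Cd74 it was 5.87, 8.89 and 12.7 in KO IRI and 7.85, 8.99 and 11.2 in KO control libraries. These ratios are descriptions, with no test.

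Over the 12 libraries the 21 pairs of the 7 genes had Pearson correlations of log values between 0.728 and 0.995, with a median of 0.928, and their deviations from the group means had a median of 0.773 (range −0.077 to 0.978). Libraries share their scaling and depth across genes, which enters every one of these values. Among 12047 protein-coding genes outside the 7, those most like H2-Ab1 in level were Pou2af1 (r = 0.977), a B cell coactivator, Rnase6 (r = 0.977), Cd79b (r = 0.976), a chain of the B cell receptor complex, Lilra5 (r = 0.960) and Unc93b1 (r = 0.955), a chaperone of endosomal Toll-like receptors. Pou2af1 also came first for Cd74 (r = 0.958) and for Ciita (r = 0.980). By deviation from the group means the nearest genes were mostly others. They were Arhgap17 (r = 0.974), Rbx1 (r = 0.951), Themis2 (r = 0.948), Cd79b (r = 0.948) and Scd1 (r = 0.944) for H2-Ab1, were led by Gm20518 (r = 0.945) and Vegfb (r = 0.937) for Cd74, and by Lrrc75b (r = 0.967) and Flt3 (r = 0.959) for Ciita. Pou2af1 was not among the 5 nearest by that measure for any of these 3 genes. Cd79b was at 1.27, 1.16 and 2.33 FPKM in KO IRI and 17.0, 4.09 and 7.63 FPKM in KO control libraries, and at 1.5, 1.82 and 0.272 FPKM in WT IRI and 6.95, 3.30 and 2.15 FPKM in WT control libraries.

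The genes were also compared with each other within libraries. Relative to Cd74 in the same library, H2-Ab1 averaged 0.363 ± 0.0705 in KO IRI and 0.624 ± 0.161 in KO control libraries, and 0.472 ± 0.0515 in WT IRI and 0.587 ± 0.0415 in WT control libraries (SD, n = 3 each). The IRI libraries were below the controls of their genotype without overlap, and an exact two-sided permutation test within genotype gave a log2 difference of −0.54 with p = 0.005, the smallest its 400 arrangements can give, and 0.06 after adjustment over 12 tests. Ciita over Cd74 averaged 0.00791 ± 0.00363 in KO IRI and 0.0123 ± 0.00181 in KO control libraries, and 0.00779 ± 0.00161 in WT IRI and 0.0137 ± 0.00144 in WT control libraries (SD, n = 3 each; log2 difference −0.77, exact permutation p = 0.015, adjusted 0.075). H2-Aa (−0.29) and H2-Eb1 (−0.28) over Cd74 each had an exact permutation p of 0.025, adjusted 0.075, so 0 of the 12 tests passed after adjustment and 4 had an unadjusted p under 0.05. Between genotypes the 6 ratios to Cd74 had exact permutation p between 0.3 and 0.975.

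**Figure D5:**
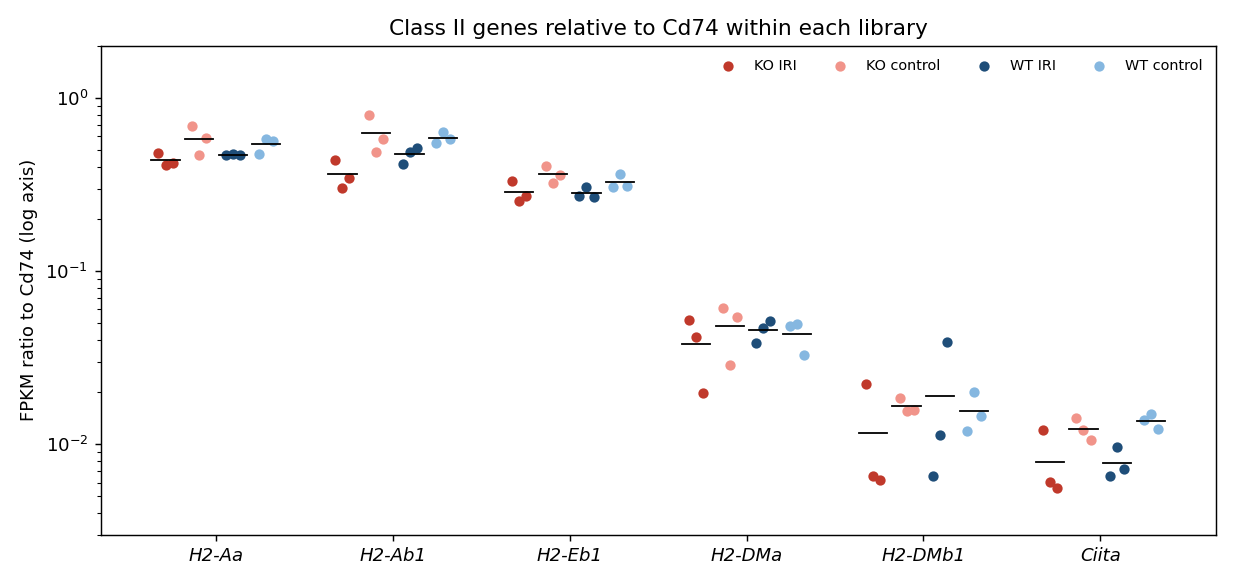
Ratio of FPKM of 6 class II genes to Cd74 in the same library (log axis); points are libraries, bars are group means, with KO IRI, KO control, WT IRI and WT control from left to right. H2-Ab1 over Cd74 averages 0.363 in KO IRI against 0.624 in KO control and 0.472 in WT IRI against 0.587 in WT control.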

How the data were processed

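FPKM values (fragments per kilobase of transcript, scaled to the mapped fragments of the library) for 52632 genes in 12 libraries were deposited by the authors as 1 table. Per the submitters' processing notes, TopHat2 2.1.0 and Cufflinks 2.2.1 were used on build GRCm38, beside Partek 7.0 and bcl2fastq 2.17.1.14; the role of each, the annotation release and the strand setting are not given in the sources used here. Per the labels' protocols, libraries were made from 1 ng of total RNA with a stranded low-input kit. Since FPKM are not counts, limma 3.58.1 (R 4.3.3) was fitted to log2(FPKM + 1) of the 19288 genes that averaged 1 FPKM or more. The fit had 1 mean per group over all 12 libraries and Benjamini-Hochberg adjustment over all tested genes (threshold 0.05). It was also run on simulated data, in which libraries did not differ in overall scale or in share of values at 0. That run does not bear on such differences. Gene IDs matched GENCODE M21 for 52399 genes. Rescaling divided each library by the median ratio over 16018 genes above 0 in all libraries. Within-library ratios were compared by exact permutation within genotype or condition. All 7 class II genes are given in each comparison; of each other list, up to 6 genes past the threshold by smallest adjusted p. Members and lists were chosen with earlier results of these data known. All libraries carry 1 date in the labels, so no batch could be compared. Some genes of the lists are not reported here.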

Additional observations from a re-analysis of the deposited data

How the results depend on the processing

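Over all 7 genes and comparisons, 904 of the results under alternative settings kept direction and side of the threshold, 44 lost and 21 gained the call, and 11 uncalled differences, all in KO against WT after IRI, changed sign. There H2-Ab1 (0.21) was −0.08 after rescaling, −0.01 with a common sum and −0.05 without the 3 libraries named below, and between −0.05 (without WT IRI 3) and 0.39 with 1 library left out. H2-DMa (0.20) was −0.05 after rescaling and −0.00 without those 3, and between −0.00 (without WT IRI 3) and 0.35 with 1 left out. H2-DMb1 (0.03) was −0.17 after rescaling, −0.11 with a common sum, and between −0.25 (without KO IRI 1) and 0.28 with 1 left out, with −0.19 without WT IRI 1. The count of class II genes called in IRI against control in KO was 1; it was 4 after rescaling by median ratios, 6 with a common sum over protein-coding genes, 2 with the replicate block, and 0 with no filter, without the variance trend, or without KO control 1, WT IRI 3 and WT control 3 together. In WT it was 0, and 1 after rescaling. In KO against WT averaged over condition it was 1, and 0 after rescaling, with a common sum, with no filter, with the replicate block, without the trend, or without those 3 libraries. The IRI average stayed at 6 or 7 under these settings. With 1 library left out, counts ran between 0 and 6 (IRI in KO), 4 and 7 (IRI average) and 0 and 4 (genotype average), and stayed at 0 elsewhere. The cause of these shifts was not tested. Whether replicate numbers pair the samples was not settled. The 18 same-number pairs had correlations of deviations between −0.037 and 0.202, with 1 over 0.1. Of the 12 libraries, 7 correlated best with their own number. The block changed the all-gene counts to 143 (IRI in KO), 549 (IRI in WT) and 1547 (IRI average). All-gene counts, as deposited and rescaled, were 167 and 398 in KO, 729 and 1531 in WT, 1744 and 2639 in the IRI average, and 2639 and 106 in the genotype average; with no filter they were 78, 405, 1081 and 211. Rescaling moved the split of higher and lower calls to 1225 and 1414 in the IRI average (580 and 1164 as deposited), to 629 and 902 in WT (229 and 500) and to 73 and 33 in the genotype average (2299 and 340). Depth per library is unknown, so no counting error can be given, also for Ciita and H2-DMb1, which lie near 1 FPKM in IRI libraries.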
